A study of Mus musculus with 6 samples.

Results

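The transcripts of the 3 forkhead box O (FoxO) factors Foxo1, Foxo3 and Foxo4 and of 7 genes known as targets of these factors were followed in erythroblast cultures treated with the Plek2 inhibitor NUP-17d. The 10 genes, Foxo1, Foxo3, Foxo4, Txnip, Sesn1, Sesn3, Klhl24, Ccng2, Pink1 and Irs2, were chosen by name and looked up by symbol among the 17060 genes listed in the series, and each of the 10 was listed in every culture. BM cells depleted of mature lineages (lineage-negative), taken from WT mice, were grown in an EPO induction culture, in which they mature into erythroblasts, and received either DMSO as vehicle or NUP-17d for 48 hours. NUP-17d was used at 10 μM and was present from the start of the culture, and 3 cultures of each kind were sequenced. WT mice of the drug screen were C57BL/6, a strain not named again for the RNA-Seq cultures. The sex and age of the mice, and whether the cultures came from separate mice, are not given in the sources used here, so the p-values measure the spread between these cultures, which may be technical.

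FoxO proteins are transcription factors that sit at the end of the PI3K/Akt pathway. Akt phosphorylates them, after which they bind 14-3-3 proteins and leave the nucleus, and when Akt activity is low they stay in the nucleus and switch on genes of stress defense, cell cycle arrest, autophagy and feedback to growth factor signaling. In erythroblasts Foxo3 is the best studied member and is known for its part in antioxidant defense and in terminal maturation. The RNA values below measure transcripts and hold no measure of FoxO protein, its phosphorylation or its place in the cell.

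The libraries were of nearly equal depth, with 20076409 to 20419018 expected reads per culture. Expected reads are estimated, since a read matching several genes is divided among them. Hemoglobin genes took 19.1% ± 1.04 of the reads in DMSO cultures and 12.2% ± 0.723 in NUP-17d cultures (each SD over n = 3), so the same total was spread differently over the remaining genes. Levels are therefore given as TMM-normalized CPM, which are counts scaled to a common library size after edgeR's correction for library composition, unless FPKM is named. The cultures carried the markers of the erythroid lineage, and the summed level of 20 erythroid markers was 33741 to 36238 CPM with DMSO and 20711 to 21920.3 CPM with NUP-17d. Each of the 20 markers was lower with NUP-17d (quasi-likelihood test in edgeR, p adjusted by Benjamini-Hochberg), against 18.9% of all 12306 tested genes. With library totals as the only scaling, 18 of the markers were lower, against 657 of the 12306 genes. Fewer erythroid cells and less of these RNAs per cell cannot be told apart in bulk RNA.

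The sequences before the start sites were examined for the motif that FoxO proteins bind. RefSeq (GRCm38.p6, the assembly that corresponds to the mm10 build of the files) gave start regions for 8 of the 10 genes, with 2 alternative starts for Sesn1 and so 9 regions, and none was at hand for Foxo4 and Klhl24. Each region runs from 250 bases before to 50 bases after the start. The FoxO motif GTAAACA, searched on both strands, was found in 2 of the 9 regions, those of Txnip and of the first start of Sesn1, and in 3.65% of all 32851 start regions. The erythroid GATA motif AGATAA was found in the region of Sesn3 (11.2% of all regions). The E-box CACGTG was found in the region of Irs2 (7.15% of all regions). The related element CACGAG was found in the regions of Txnip and Foxo3 (6.47% of all regions), in the latter just after the start. These matches are descriptions of letters and not of binding.

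Txnip is shown because it had the largest fall of the 10 genes and holds 3 matches, and Irs2, an insulin signaling gene that was not called, is shown beside it. Both are the 250 bases before the start, 5′ to 3′ on the strand of the gene, and capitals mark the motif matches.
Txnip, chr3:96557707-96557956, plus strand: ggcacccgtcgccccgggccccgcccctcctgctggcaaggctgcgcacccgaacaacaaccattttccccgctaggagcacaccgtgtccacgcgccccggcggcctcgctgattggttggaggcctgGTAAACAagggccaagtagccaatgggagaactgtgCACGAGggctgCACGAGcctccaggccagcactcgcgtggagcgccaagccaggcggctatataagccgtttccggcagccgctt
Irs2, chr8:11008930-11009179, minus strand: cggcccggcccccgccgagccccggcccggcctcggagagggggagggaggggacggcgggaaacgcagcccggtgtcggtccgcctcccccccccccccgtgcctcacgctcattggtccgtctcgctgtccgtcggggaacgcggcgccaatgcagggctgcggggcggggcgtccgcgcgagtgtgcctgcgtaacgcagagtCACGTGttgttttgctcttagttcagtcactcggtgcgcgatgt
In Txnip the FoxO match covers positions -121 to -115 from the start, and both CACGAG matches follow it at -85 to -80 and at -74 to -69, 5 bases apart. The E-box of Irs2 lies at -44 to -39. The start regions of Foxo3, Ccng2 and Pink1, which were called lower with TMM too, held no FoxO match. In Sesn1 the FoxO match lies on the opposite strand at positions 23 to 29 after the first start, within the 27 bases shown here because Sesn1 also fell.
Sesn1, chr10:41810586-41810612, plus strand: aaccttctacTGTTTACcagccttttg

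Of the 10 genes, 6 were lower with NUP-17d at an adjusted p under 0.05, namely Foxo3, Foxo4, Txnip, Sesn1, Ccng2 and Pink1, and 4 were not called. Over all 12306 tested genes, 18.9% were called lower and 16.4% were called higher. With TMM scaling, all 6 cultures and no block for the culture number, edgeR called none of the 10 higher, nor did DESeq2. At an unadjusted p under 0.05, the same edgeR fit counted 2 higher (Foxo1 and Irs2) and DESeq2 counted 0. The 10 genes had a median log2 fold change of -0.28, and all tested genes had 0.014. The groups did not overlap in 7 of the 10, the 6 lower genes and Sesn3, and did not overlap in 46.0% of all tested genes.

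**Figure D1:**
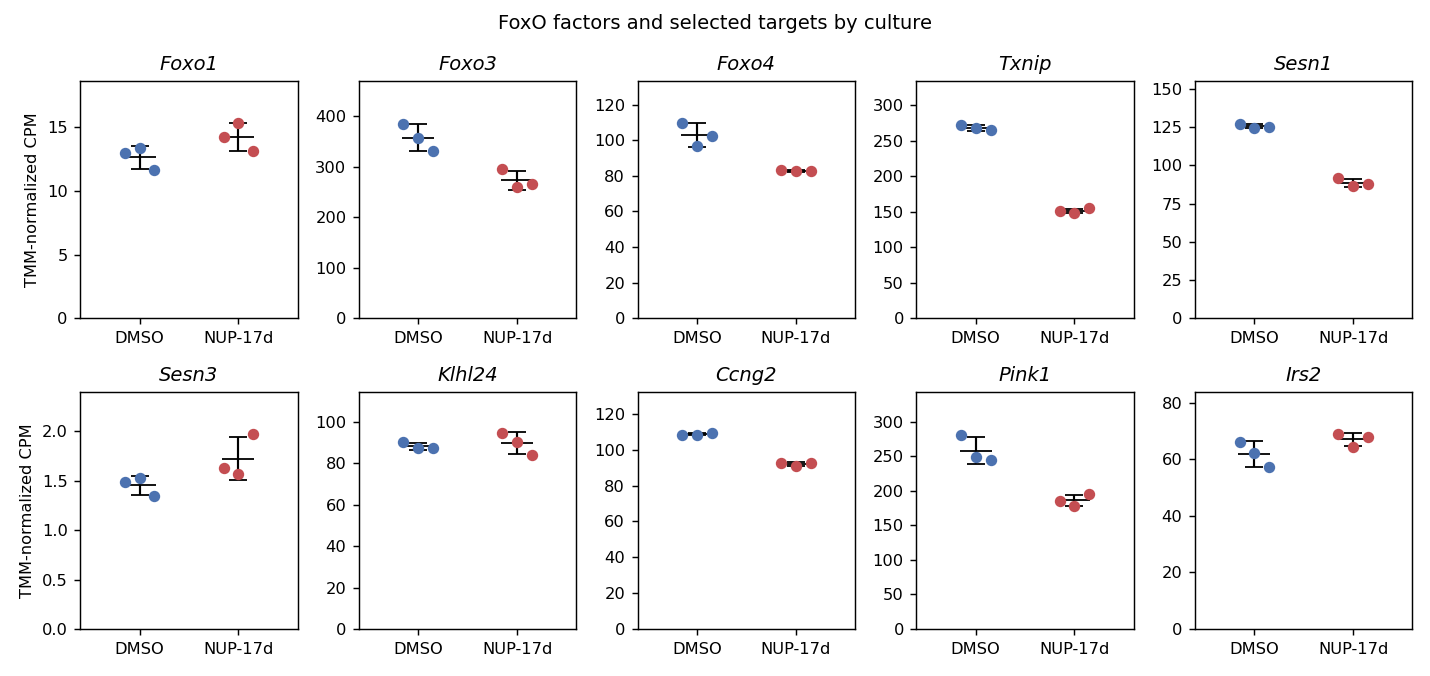
Level of each of the 10 genes in TMM-normalized CPM (y axis, from 0) in the 3 DMSO cultures (blue) and the 3 NUP-17d cultures (red), with the mean and SD in black. The red points lie below all blue points for Foxo3, Foxo4, Txnip, Sesn1, Ccng2 and Pink1.

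Among the factors themselves, Foxo3 (Entrez gene 56484, chr10:42181845-42276695) was by far the most abundant. It had 385 CPM, 357 CPM and 332 CPM in DMSO cultures 1, 2 and 3 and 295 CPM, 259 CPM and 267 CPM in NUP-17d cultures 1, 2 and 3. The groups did not overlap, and culture 1 was the highest in each. The log2 fold change was -0.39 (SE 0.047, adjusted p = 2.28e-07 from edgeR), a change of -23.5%. Foxo4 (Entrez gene 54601, chrX:101254261-101260873) had 109.6 CPM, 96.5 CPM and 102 CPM with DMSO and 83.5 CPM, 82.7 CPM and 82.5 CPM with NUP-17d. Its NUP-17d cultures lay close together, below every DMSO culture, with a log2 fold change of -0.31 (SE 0.042, adjusted p = 1.60e-06).

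Foxo1 (Entrez gene 56458, chr3:52268337-52350109), the factor best known from insulin-responsive tissues, was far less abundant and was not called. It had 13.0 CPM, 13.3 CPM and 11.6 CPM with DMSO and 14.2 CPM, 15.3 CPM and 13.2 CPM with NUP-17d, so the groups overlapped. The log2 fold change was 0.17 (95% interval 0.0077 to 0.33, adjusted p = 0.0973), and the test was not passed. Foxo6, the remaining member of the family, had at most 2 reads in any culture and was not tested.

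A share within a culture does not depend on how libraries are scaled. On the FPKM scale, in which counts are divided by transcript length, Foxo3 made up 78.1% ± 1.04 of the summed FoxO level with DMSO and 76.7% ± 1.14 with NUP-17d (each SD over n = 3, 2-sided exact permutation p = 0.2). Foxo4 made up 20.5% ± 1.10 and 21.2% ± 0.988 (exact p = 0.5). Foxo1 made up 1.43% ± 0.0865 and 2.07% ± 0.215, and its groups did not overlap (exact p = 0.1, which is as low as 3 against 3 can reach). The ratio of Foxo1 to Foxo3 reads was 0.0337, 0.0374 and 0.0350 with DMSO and 0.0481, 0.0591 and 0.0493 with NUP-17d, 1.48-fold higher (exact p = 0.1). The fall of Foxo3 enters this ratio. Foxo4 reads per Foxo3 read were 0.288 ± 0.0194 and 0.304 ± 0.0185 with overlapping groups (each SD over n = 3, exact p = 0.4).

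Txnip (Entrez gene 56338, chr3:96557957-96561857) encodes an α-arrestin that binds thioredoxin and restrains glucose uptake. It had 272 CPM, 268 CPM and 264 CPM with DMSO and 150.5 CPM, 148 CPM and 155 CPM with NUP-17d. The replicates of each group were close together and the groups were far apart, and the log2 fold change was -0.83 (SE 0.035, adjusted p = 3.82e-16). Only 1.25% of all tested genes had a lower log2 fold change than Txnip. Txnip reads per Foxo3 read were 0.751 ± 0.0454 with DMSO and 0.553 ± 0.0377 with NUP-17d, without overlap (each SD over n = 3, exact p = 0.1). In the GENCODE M21 annotation of the same build, 606 exonic bases of Txnip overlap Gm15441, a gene on the opposite strand. The sample record describes a library protocol without a strand mark whereas the study's methods name a stranded kit, so reads of the overlap cannot be assigned to either gene with certainty. The same holds for 674 exonic bases that Foxo1 shares with Gm20402 and 162 that Irs2 shares with 9530052E02Rik, both on the opposite strand. Pink1 shares 110 exonic bases with Gm27646 and 69 with Mir7019, microRNA genes on its own strand, which a stranded kit would not separate either.

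The sestrins are stress-induced proteins that restrain mTORC1. Sesn1 (Entrez gene 140742, chr10:41810574-41908436) had 127 CPM, 124 CPM and 125 CPM with DMSO and 91.6 CPM, 86.8 CPM and 87.5 CPM with NUP-17d. Every treated culture was below every control culture, with a log2 fold change of -0.50 (SE 0.037, adjusted p = 2.15e-11). Sesn3 (Entrez gene 75747, chr9:14276301-14326134), a classical FoxO target in other tissues, had only 25 to 29 reads per DMSO culture and 35 to 43 per NUP-17d culture. Its 1.34 to 1.53 CPM with DMSO and 1.57 to 1.97 CPM with NUP-17d did not overlap, but the log2 fold change of 0.24 had a 95% interval of -0.19 to 0.68 (adjusted p = 0.403), and with library totals only Sesn3 was called higher (0.51, adjusted p = 0.0339).

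Sesn2, the third sestrin and a target of stress pathways other than FoxO as well, was the most abundant of the family and had 225 ± 11 CPM with DMSO and 190.1 ± 3.65 CPM with NUP-17d (log2 fold change -0.24, adjusted p = 9.35e-06, and 0.024 with library totals only). Sesn1 held 36.1% ± 0.899 of the summed sestrin FPKM with DMSO and 31.8% ± 0.476 with NUP-17d, and Sesn2 held 63.4% ± 0.891 and 67.4% ± 0.396 (each SD over n = 3, exact p = 0.1 for both). In each NUP-17d culture the share of Sesn1 was below that in every DMSO culture. Sesn3 held 0.511% and 0.760%.

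Pink1 (Entrez gene 68943, chr4:138313409-138326296) encodes the mitochondrial kinase that marks damaged mitochondria for removal by autophagy. It had 281 CPM, 249 CPM and 244 CPM with DMSO and 185 CPM, 179 CPM and 195 CPM with NUP-17d. DMSO culture 1 was the highest, but the groups did not overlap, and the log2 fold change was -0.47 (SE 0.044, adjusted p = 2.30e-09). Park2, the gene of the ubiquitin ligase parkin that works with Pink1, was near its detection limit, with 15.2 to 16.5 reads per DMSO culture and 19.3 to 29.4 per NUP-17d culture (adjusted p = 0.422).

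Ccng2 (Entrez gene 12452, chr5:93267573-93276231) encodes an unconventional cyclin linked to cell cycle arrest. It had 108 CPM, 108 CPM and 109 CPM with DMSO and 92.7 CPM, 90.7 CPM and 92.6 CPM with NUP-17d. The fall was the smallest of the 6 called genes, with a log2 fold change of -0.24 (SE 0.036, adjusted p = 7.14e-06), and it was 0.027 with library totals as the only scaling. The DMSO cultures were nearly equal, with an SD of 0.611 CPM. Ccng1 and Ccni, related cyclins, were lower as well, with log2 fold changes of -0.20 (adjusted p = 3.31e-05) and -0.19 (adjusted p = 4.35e-05), which were 0.062 and 0.073 with library totals only.

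Klhl24 and Irs2 were not called. Klhl24 (Entrez gene 75785, chr16:20097553-20129226), an adaptor of a cullin ubiquitin ligase, had 90.2 CPM, 87.4 CPM and 87.4 CPM with DMSO and 94.8 CPM, 90.2 CPM and 84.3 CPM with NUP-17d. The groups overlapped, and the log2 fold change was 0.024 with a 95% interval of -0.063 to 0.11 (adjusted p = 0.694). Irs2 (Entrez gene 384783, chr8:10984681-11008929), the adaptor that couples insulin and cytokine receptors to PI3K, had 66.1 CPM, 62.3 CPM and 57.2 CPM with DMSO and 68.8 CPM, 64.4 CPM and 67.7 CPM with NUP-17d. The groups overlapped here too (log2 fold change 0.11, 95% interval 0.017 to 0.21, adjusted p = 0.0620). Irs2 passed with the culture number as a replicate block (0.11, adjusted p = 0.0347), without DMSO culture 1 (0.16, adjusted p = 0.0148) and without NUP-17d culture 2 (0.14, adjusted p = 0.0325), and Foxo1 passed without NUP-17d culture 3 (0.22, adjusted p = 0.0463 from edgeR). Irs1, the paralog of Irs2, had 2 to 6 reads per culture and was not tested.

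Set against Foxo3 reads in the same culture, both genes were higher in each NUP-17d culture than in each DMSO culture. Foxo3 itself fell (log2 fold change -0.39 with TMM), so a gene that did not change also rises on this measure. The share of all tested genes that did so was not computed. Irs2 reads per Foxo3 read were 0.172, 0.175 and 0.172 with DMSO and 0.233, 0.248 and 0.254 with NUP-17d, 1.42-fold higher, and Klhl24 reads per Foxo3 read were 0.248 ± 0.0148 and 0.328 ± 0.0171 (each SD over n = 3, exact p = 0.1 for both). Pink1, Sesn1 and Ccng2 reads per Foxo3 read overlapped between the groups, with exact p of 0.3, 0.2 and 0.2. Txnip reads per Klhl24 read were 3.03 ± 0.0246 with DMSO and 1.69 ± 0.130 with NUP-17d (each SD over n = 3, exact p = 0.1). Including the erythroid ratios below, 21 such ratios were computed, all chosen after values had been seen, and with Benjamini-Hochberg adjustment over them the smallest p was 0.124.

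Per length, the order of the genes was much the same in both groups. With DMSO the mean FPKM fell from Foxo3 (111) over Pink1 (98.2), Txnip (86.2), Sesn1 (43.0), Ccng2 (39.0), Foxo4 (29.2), Irs2 (13.8), Klhl24 (11.8) and Foxo1 (2.03) to Sesn3 (0.610). Only Foxo3 and Pink1 had overlapping ranges among neighbors in that order. With NUP-17d no neighbors overlapped, and Ccng2, at 39.9 FPKM, stood above Sesn1, at 36.5 FPKM. FPKM values carry no correction for library composition, so they serve here to compare genes within a culture.

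**Figure D2:**
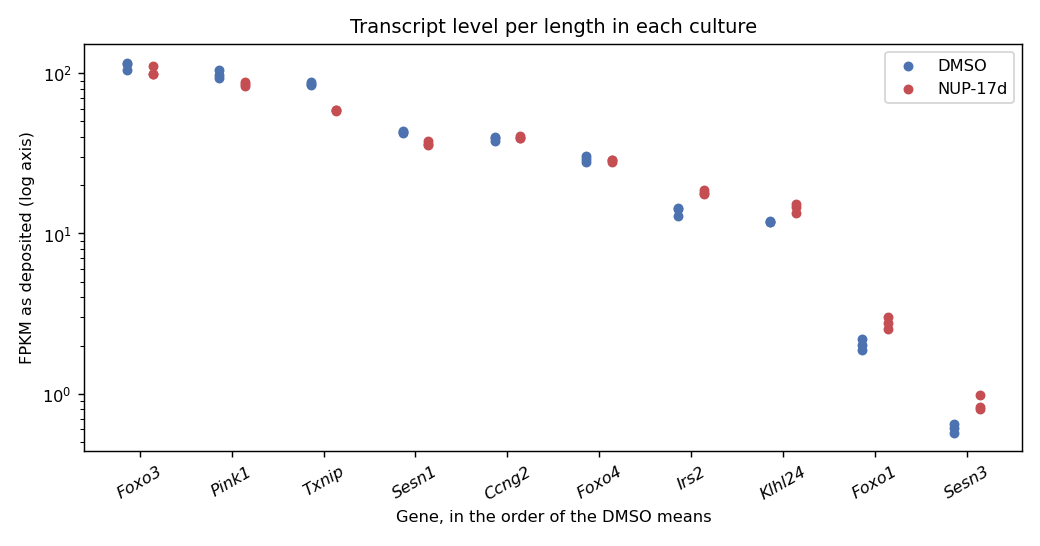
FPKM as deposited (y axis, log scale) of each gene in the 3 DMSO cultures (blue) and the 3 NUP-17d cultures (red), ordered by the DMSO mean. Foxo3 leads in both groups, and Sesn3 is lowest, under 1 FPKM.

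The scaling of the libraries entered each of these changes. With TMM, all tested genes together had a median log2 fold change of 0.014, and with scaling by library totals only it was 0.28, a shift that applies to every gene alike. With totals only, 8458 of the 12306 tested genes were called higher and 657 lower. Of all genes called with totals only, 92.8% were higher, against 46.5% with TMM. The log2 fold changes were then -0.56 for Txnip, -0.24 for Sesn1, -0.20 for Pink1 and -0.12 for Foxo3, and these 4 were still called lower. Foxo4 (-0.042) and Ccng2 (0.027) were not called, and Klhl24 (0.29), Irs2 (0.38), Foxo1 (0.44) and Sesn3 (0.51) were called higher. Relative to the median of all genes under either scaling, the 6 genes that were called lower with TMM lay below it, Klhl24 lay next to it, and Irs2, Foxo1 and Sesn3 lay above it.

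**Figure D3:**
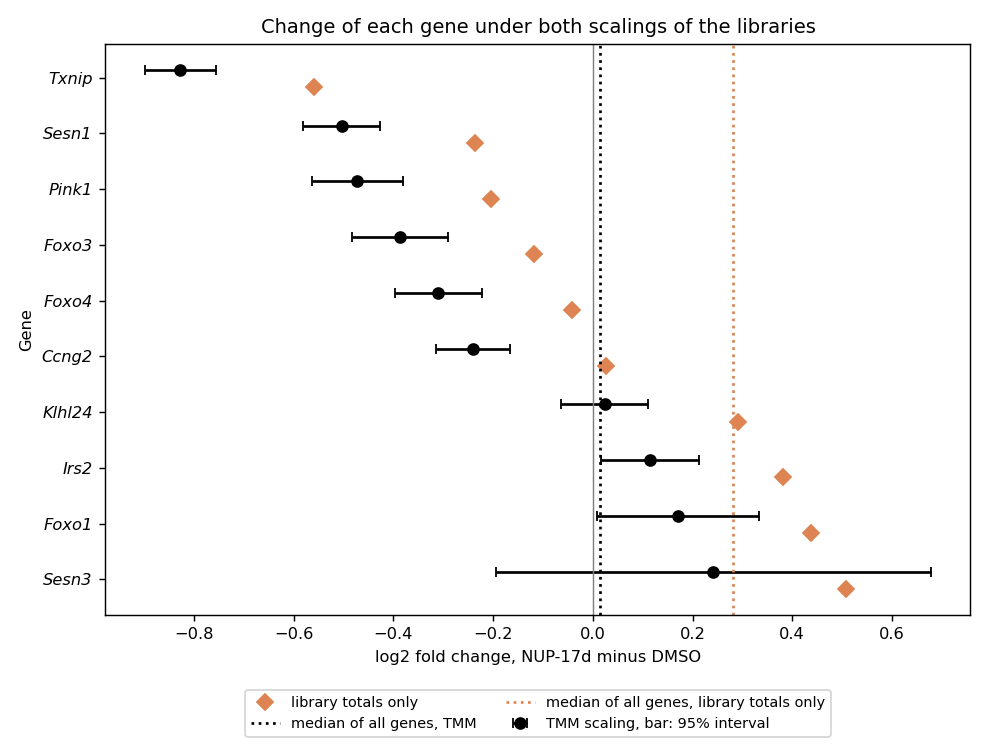
log2 fold change (x axis) of each gene (y axis) with TMM scaling (black points, bars are 95% intervals) and with library totals only (orange diamonds), with dotted lines at the median of all tested genes under each scaling (0.014 and 0.28). The diamonds lie to the right of the points by about the distance between the lines.

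The erythroid markers were lower as the 6 called genes were. The 20 markers had a median log2 fold change of -0.63 and ranged from -1.03 to -0.24. Per 1000 reads of the erythroid markers, Foxo3 had 10.6, 10.6 and 9.70 reads with DMSO and 13.6, 12.5 and 12.2 reads with NUP-17d, 1.24-fold higher (exact p = 0.1). Of the 10 genes, 9 were higher on this measure in every NUP-17d culture than in every DMSO culture, from 1.14-fold for Sesn1 to 1.91-fold for Sesn3. Txnip was the exception, with 7.50, 7.93 and 7.73 reads with DMSO and 6.94, 7.14 and 7.05 reads with NUP-17d per 1000 erythroid marker reads (exact p = 0.1). On this measure Txnip was lower in each NUP-17d culture than in each DMSO culture. The marker sum itself fell with NUP-17d, so a gene that was unchanged with TMM rises on this measure. Klhl24, with a log2 fold change of 0.024, was 1.65-fold higher. The share of all tested genes that were higher on this measure was not computed. The sum is led by a few very abundant genes, among them Slc4a1. The part of erythroid transcripts in the changes above was not tested.

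Markers of other cell types that lineage-negative cultures could hold were also present, and their counts can be read beside the 16.4% of all tested genes that were called higher and the 18.9% called lower. Among megakaryocyte markers 8 of 10 were called higher (summed level 974 to 1032 CPM with DMSO and 1179 to 1255 CPM with NUP-17d), and among stem and progenitor markers 4 of 10 were (656 to 661 CPM and 694 to 709.7 CPM). For neutrophil markers, 2 of 10 were called higher and 1 lower (3942 to 4109 CPM and 4021 to 4301 CPM), and for macrophage markers 3 were called higher and 3 lower (649 to 714 CPM and 704 to 779 CPM). Of the 7 tested mast cell and basophil markers, 1 was called higher and 3 lower (316 to 328 CPM and 292 to 303 CPM), while Cma1, Tpsb2 and Mcpt1 had under 10 reads in every culture. With library totals only, 10 megakaryocyte, 10 stem and progenitor, 8 neutrophil, 6 macrophage and 3 mast cell and basophil markers were called higher and none lower. With that scaling, 8458 of all 12306 tested genes were called higher and 657 lower. Mcpt1 was at 0 in the DMSO cultures, and the part of these cells in the results was not tested.

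A wider list of 39 FoxO targets, written from general knowledge but with earlier results of these data known, showed falls and rises. Of the 34 tested, 17 were called lower (against 18.9% of all genes) and 7 higher (against 16.4%), with a median log2 fold change of -0.16. With library totals only, 9 were called lower (against 657 of all 12306 tested genes) and 16 higher (against 8458). The list holds genes that erythroblasts express strongly and others that belong to liver or muscle, and Trim63, Pdk4, G6pc, Pck1 and Fasl had under 10 reads in every culture. The lowest p-values belonged to Gadd45a, a growth arrest gene, which fell from 1449 ± 33.3 to 690.3 ± 24.2 CPM (log2 fold change -1.07, adjusted p = 9.19e-18), to Bnip3l, the mitophagy receptor of maturing red cells (-0.64), to Cat, which encodes catalase (-0.54), and to Hbp1, a cell cycle repressor (-0.47). Among the 7 that rose, Bnip3, the paralog of Bnip3l, went from 14.9 ± 0.394 to 24.1 ± 2.28 CPM (each SD over n = 3, log2 fold change 0.69, adjusted p = 1.37e-08). Bnip3 was chosen after its values were seen.

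**Figure D4:**
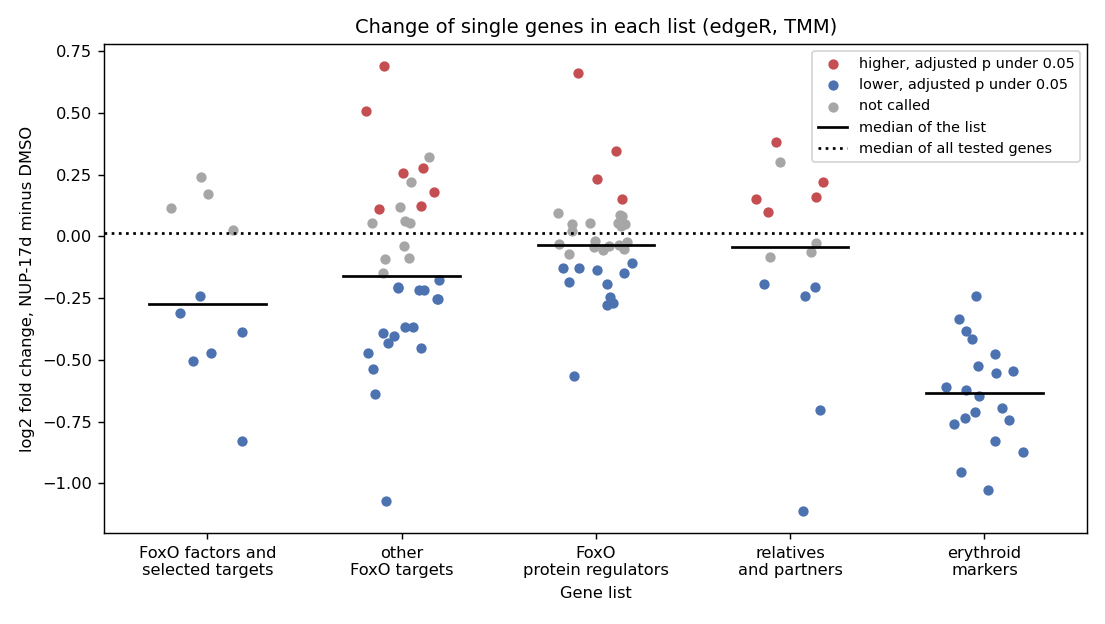
log2 fold change (y axis, edgeR with TMM) of each tested gene in the 10 genes and 4 other lists, red where called higher, blue where called lower and gray where not called, with the median of each list as a bar and that of all tested genes as a dotted line. The medians are -0.28, -0.16, -0.033, -0.045 and -0.63 from left to right.

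Genes whose proteins act on FoxO proteins were counted next. Of 33 such genes, 11 were called lower (against 18.9% of all genes) and 4 higher (against 16.4%), and the median log2 fold change was -0.033. Among kinases of FoxO proteins, Akt1 had 142 ± 6.64 CPM with DMSO and 151 ± 1.85 CPM with NUP-17d (log2 fold change 0.083, adjusted p = 0.0901). With library totals only, Akt1 was 0.35 and called higher. Akt2 fell by 0.14 on the log2 scale (adjusted p = 0.00343, but 0.13 and called higher with library totals only). The lowest p-values belonged to Sirt2, a deacetylase of FoxO proteins, which rose from 80.3 ± 2.0 to 127 ± 3.30 CPM (each SD over n = 3, log2 fold change 0.66, adjusted p = 1.63e-13), and to Usp7, a deubiquitinase of FoxO proteins, which fell from 414 ± 4.03 to 279.8 ± 10.7 CPM (-0.57, adjusted p = 7.41e-13). The acetyltransferase genes Ep300 (-0.28) and Crebbp (-0.27) fell, and with library totals only they were -0.0082 and -0.0029 and not called. Sgk1, a kinase related to Akt, and Setd7 were also called higher. The 14-3-3 genes on the list were not called with TMM but were called higher with library totals only (0.21 to 0.32). With library totals only, 27 of the 33 were called higher (against 8458 of all 12306 tested genes) and 1 lower (against 657). The direction of the small changes thus rests on the scaling.

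Of the 14 tested relatives and partners of the 10 genes, 5 were called higher (against 16.4% of all genes) and 5 lower (against 18.9%). With library totals only, 9 were called higher (against 8458 of all 12306 tested genes) and 2 lower (against 657). The α-arrestins Arrdc3 and Arrdc4, paralogs of Txnip, fell, Arrdc3 from 149 ± 3.48 to 91.5 ± 0.239 CPM (each SD over n = 3, log2 fold change -0.70, adjusted p = 1.80e-14) and Arrdc4 from 98 to 126 reads per DMSO culture to 53 to 67 reads per NUP-17d culture (-1.11, adjusted p = 7.19e-07). Arrdc1 rose (0.22, adjusted p = 0.000771), and Arrdc2 did not pass the test (-0.027, adjusted p = 0.824). Igf1r, the receptor of insulin-like growth factor upstream of Irs2, rose from 61.9 ± 1.01 to 80.6 ± 5.70 CPM (0.38, adjusted p = 2.28e-07). Txnrd1, Klhl5 and Klhl6 were the other genes called higher, and Txn1, the thioredoxin that Txnip binds, was not called (-0.085, adjusted p = 0.103).

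The genes whose log2 CPM over the 6 cultures was most like that of Foxo3, among the 9763 genes averaging 100 reads or more, were Hectd4, Kdm2a, Herc1, Vars and Podxl, with Pearson r from 0.995 to 0.996. Each shared the highest value in culture 1 of both groups with Foxo3, and the 6 points fall into the 2 treatment groups, which sets most of each r. Among the other genes of the list that had enough reads, r with Foxo3 was 0.95 for Pink1, 0.95 for Sesn1, 0.93 for Foxo4, 0.93 for Txnip and 0.92 for Ccng2, and it was 0.049 for Klhl24, -0.33 for Irs2 and -0.55 for Foxo1. By r with Foxo3, Pink1 ranked 398, Sesn1 477, Foxo4 779, Txnip 817 and Ccng2 951 among these 9763 genes. Many genes outside the list were thus as much like Foxo3 or more so. These values describe 6 cultures and carry no test.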

How the data were processed

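RNA-Seq tables of 3 DMSO and 3 NUP-17d cultures were used, grouped by the sample labels. The authors deposited, for each culture and each gene with reads, an expected count (the estimated reads of the gene, not normalized, 27.8% to 28.5% of values not whole) and an FPKM value (that count divided by length and library total). The build is mm10 in the submitters' processing notes. The aligner and counting program are not given in the sources used here. Genes absent from a table were taken as 0.

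Expected counts were rounded, filtered by filterByExpr, scaled by TMM and compared with edgeR 4.0.16 (glmQLFit and glmQLFTest, R 4.3.3) with Benjamini-Hochberg adjustment (12306 genes) and a threshold of 0.05. The fits were tested on simulated counts in which all libraries had the same composition apart from the genes set to change. That test does not bear on the choice of scaling. Shares and ratios were compared by 2-sided exact permutation over cultures. Alternatives were DESeq2 1.42.0, limma 3.58.1 on FPKM logged after adding 1 or 0.1, library totals, RLE factors, no filter, hemoglobin genes removed, the culture number as a block and each culture left out.

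The members, gene lists and motifs were chosen with earlier results of these data known. Genes named are the 10 members, Akt1 and Akt2, the 4 genes with the lowest p-values of each other list, the 5 genes most like Foxo3 and, chosen after their values were seen, other genes where a small count needed names. The values of 1 gene that this rule names are not reported here. Cultures of 1 group differed by more than counting noise (chi-square per degree of freedom 1.83 to 4.54). Deviations from the group mean over 9763 genes had r of 0.0993, -0.00876 and 0.0964 between same-numbered cultures. Between cultures of unlike number, r ran from -0.114 to 0.0225. The numbers were not taken as pairs in the main fit, and a fit with them as a block is given below.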

Additional observations from a re-analysis of the deposited data

How the results depend on the processing

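The 6 genes called lower (Foxo3, Foxo4, Txnip, Sesn1, Ccng2 and Pink1) kept that call with DESeq2, RLE factors, no filter, hemoglobin genes removed, the block, each of the 6 fits without 1 culture, and limma on FPKM divided by the TMM factor, an alternative chosen after seeing the data. Scalings without a composition correction changed calls. With library totals only, log2 fold changes were 0.44 (Foxo1), -0.042 (Foxo4), 0.51 (Sesn3), 0.29 (Klhl24), 0.027 (Ccng2) and 0.38 (Irs2), with 4 of the 10 called higher, and the counts higher and lower were 16 and 9 for other FoxO targets, 27 and 1 for FoxO protein regulators, 9 and 2 for relatives and partners, and 8458 and 657 for all genes (2019 and 2327 with TMM). With limma on log2(FPKM + 1), log2 differences were 0.31 (Foxo1), -0.11 (Foxo3), -0.036 (Foxo4), 0.27 (Klhl24), 0.030 (Ccng2) and 0.36 (Irs2), with 3 called higher and 3 lower of the 10 (Sesn3, under 1 FPKM, was left out), and counts of 14 and 8, 27 and 1, 9 and 2, and 7895 and 599. With log2(FPKM + 0.1) they were 0.43, -0.11, -0.037, 0.29, 0.031 and 0.38, with the same 3 and 3 and counts of 14 and 8, 27 and 1, 9 and 2, and 7880 and 600. DESeq2 called 1276 genes higher and 2 relatives and partners higher.

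With the culture number as a replicate block, Irs2 was called (0.11), making 1 of the 10 higher, and no other call among the 10 changed. Without 1 culture in turn, Foxo1 ranged from 0.11 to 0.22, Irs2 from 0.060 to 0.16 and Klhl24 from -0.017 to 0.066 (below 0 without NUP-17d culture 1), 0 to 1 of the 10 were called higher, and 7 to 10 regulators were called lower (7 without DMSO culture 1) and 2 to 4 relatives higher (2 without DMSO culture 1, 3 without DMSO culture 3 and without NUP-17d cultures 2 and 3). The share of Foxo1 differed by 1.17 percentage points on counts and 0.641 on FPKM, which divides by its longer transcript. These causes were otherwise not tested. At this depth Sesn3, with 25 to 43 reads, is the least precisely measured of the 10.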
